A study of Mus musculus with 6 samples.

Results

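In all, 10 Notch pathway genes were followed in colon of mice with Hdac1 and Hdac2 targeted for deletion in intestinal epithelial cells (IEC). They were the receptors Notch1, Notch2 and Notch3, the ligands Dll1, Dll4, Jag1 and Jag2, target repressors Hes1 and Hey1, and the modifying enzyme Lfng. These 10 genes, of 18193 named on the array, were chosen by symbol, and all of their 18 probe sets that carry no other symbol were kept, of 45037 tested. Total colon RNA of control and HDAC1/2 deficient mice, 4 months old, was hybridized to Affymetrix Mouse Genome 430 2.0 arrays, 3 per group, and each array is labelled with a mouse number of its own. The deficient mice carried floxed Hdac1 and Hdac2 alleles and a villin-Cre transgene, which deletes in intestinal epithelial cells only, so that stromal, muscle and immune cells kept both genes. Controls are labelled wild type, and the labels give no treatment for either group. Values are log2 signals, and changes are given as log2 fold changes, deficient minus control, so that a value of 1 stands for a doubling. A probe set rose or fell where limma's adjusted p was under 0.05.

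Notch receptors are single-pass membrane proteins that Delta-like and Jagged ligands on a neighbouring cell activate. Ligand binding leads to cleavage by a sheddase and then by gamma-secretase, and the freed intracellular domain joins the DNA-binding protein RBPJ to switch on genes such as Hes1. Without it, RBPJ is held by corepressors that bring histone deacetylases to the same genes. In the intestinal crypt, Notch activity keeps progenitors proliferating and steers their daughters to the absorptive fate, largely because HES1 represses Atoh1, the master gene of goblet, Paneth and enteroendocrine cells, whereas Dll1 and Dll4 are made by the secretory cells themselves.

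Hdac1 was lower on every deficient array, at 9.21 to 9.32 against 10.53 to 10.60 in control colon (log2 fold change -1.30). Hdac2 was at 10.92 to 11.02 in deficient and 10.92 to 10.96 in control colon (0.05, limma adjusted p = 0.475) by the brightest of 3 probe sets. Whether these probe sets read the deleted part of the gene is not known here. In the paper, a Western blot of enriched epithelial cells showed depletion of HDAC1 and HDAC2 protein. By immunofluorescence the paper saw no HDAC1 in the mutant epithelium. HDAC2 was patchy there, with most crypt and villus cells negative and some crypts and villi still positive. The labels name epithelium as the source, while RNA of muscle was present on all arrays, with Acta2, the smooth muscle actin gene, at a mean of 14.23 in control and 14.10 in deficient colon. The epithelial adhesion gene Epcam was at 14.31 and 14.15. The Y-linked gene Eif2s3y was at 3.84 to 4.31 in control and 8.22 to 8.49 in deficient colon. Xist, the RNA of the inactive X chromosome in females, was lower but still strong on the deficient arrays, at 11.99 to 12.06 against 12.81 to 12.88 (-0.83). Each deficient array thus held both Y-linked and Xist signal, and the control arrays held Xist with little Y-linked signal. The part of sex in the results, and whether an array held RNA of more than 1 mouse, were not tested. Within a group, arrays correlated at 0.9984 to 0.9988 across probe sets, and p-values measure only the spread between these arrays, which may be technical.

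Notch pathway members moved in opposite directions in HDAC1/2 deficient colon. The ligand gene Dll1 and the target gene Hes1 fell, the ligand gene Jag1 rose by close to 2-fold, Notch2 fell and Notch3 rose in 1 of 2 probe sets each, and Notch1, Dll4, Jag2, Hey1 and Lfng did not pass the test. Of the 18 probe sets, 3 rose, 3 fell and 12 did not pass, or 33.3%, where 39.8% of all probe sets on the array passed, 18.8% up and 21.0% down. Counted once per gene, at its brightest probe set, 2 of 10 members rose and 3 fell, or 50.0%, beside 50.4% of all genes, 21.9% up and 28.4% down. The share of members that changed was therefore near that of the whole array, and their median log2 fold change of 0.01 was close to the -0.01 of all probe sets. The groups did not overlap in 8 of the 18 probe sets, against 50.0% of all probe sets, and in 5 of the 10 genes, against 60.9% of all genes.

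**Figure D1:**
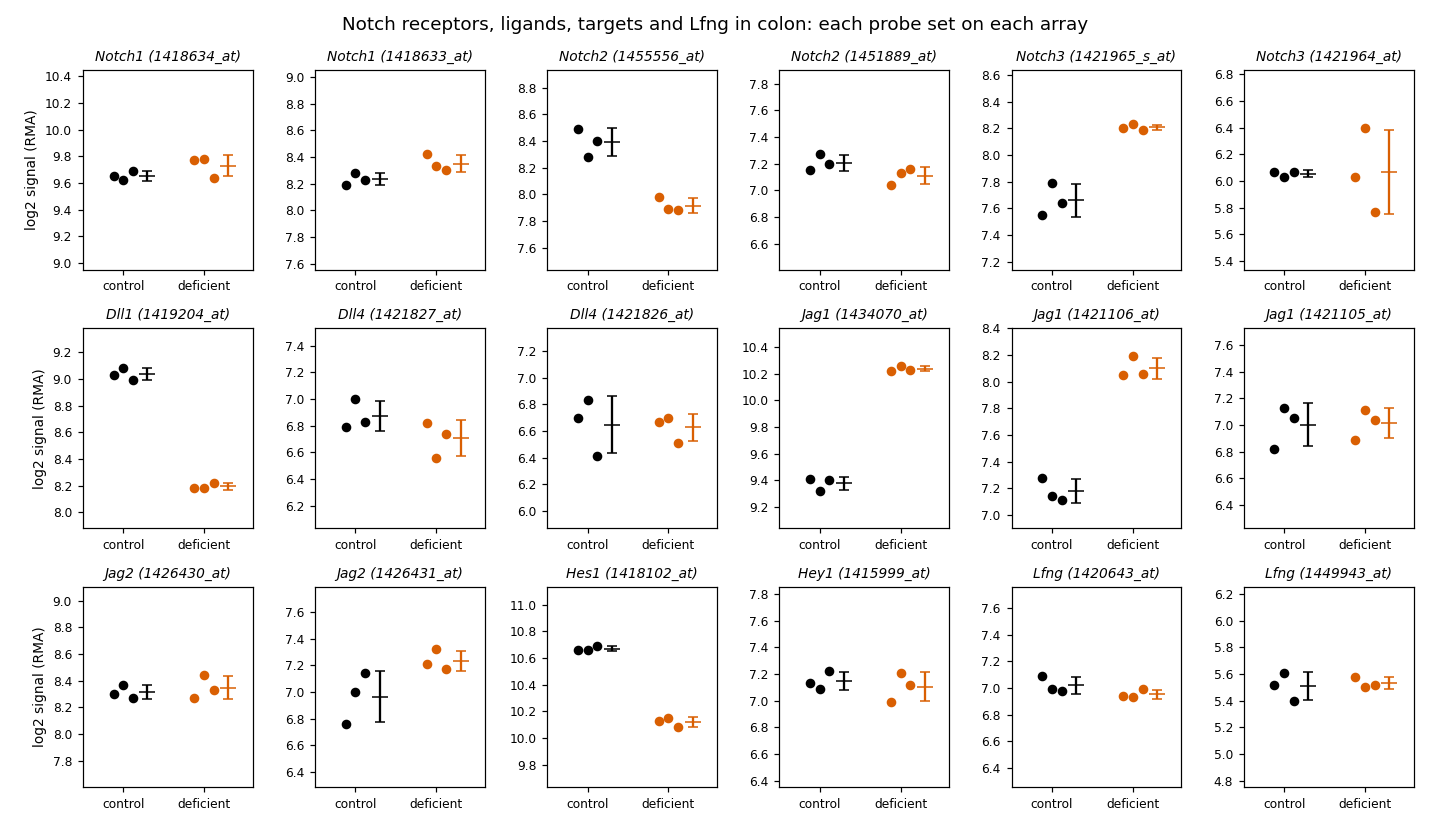
Log2 signal (vertical axis, RMA values) of the 18 probe sets of the 10 Notch genes on each array, with 1 panel per probe set and every panel spanning the same 1.5 log2 units. Points are arrays, in the order of replicates 1 to 3, for control (black) and HDAC1/2 deficient (orange) colon, and the bars beside them are the mean and SD of 3 arrays. The groups lie far apart for Dll1, Hes1 and Jag1 (1434070_at and 1421106_at).

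Of the ligand genes, Dll1, which encodes the Delta-like ligand shown by secretory progenitors, was at 9.03, 9.08 and 8.99 in control and at 8.18, 8.18 and 8.22 in deficient colon. Every deficient array lay below every control array by more than 0.7 log2 units. Dll1 fell by 0.84 on the log2 scale (SE 0.0434, limma adjusted p = 5.38e-06), so that control colon held 1.79-fold more signal. A fall of this size or larger was seen in 1.99% of all probe sets. Jag1, which encodes a Jagged ligand made by many cell types, including endothelial and stromal cells, went the other way. Its brightest probe set, 1434070_at, read 9.41, 9.32 and 9.40 in control and 10.22, 10.26 and 10.23 in deficient colon. The arrays of the groups did not overlap, and Jag1 rose 1.82-fold (log2 fold change 0.86, SE 0.044, limma adjusted p = 5.22e-06). A rise as large or larger was seen in 2.13% of all probe sets. The second probe set of Jag1, 1421106_at, rose in step, from 7.28, 7.14 and 7.11 to 8.05, 8.19 and 8.06 (log2 fold change 0.92, SE 0.0622, limma adjusted p = 2.01e-05). The third, 1421105_at, did not separate the groups, with 6.82, 7.13 and 7.05 in control and 6.89, 7.11 and 7.04 in deficient colon. Its log2 fold change was 0.01, with a 95% confidence interval from -0.20 to 0.22, which excludes the rise seen in the other two. Where on the transcript each probe set lies is not known here.

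Dll4, the second Delta-like ligand of the crypt and a ligand of growing vessels, was at 6.79, 7.0 and 6.83 in control and 6.82, 6.56 and 6.74 in deficient colon. The groups overlapped, and the log2 fold change of -0.17 had a 95% confidence interval from -0.36 to 0.02 (limma adjusted p = 0.152). The interval holds no fall as deep as that of Dll1. The dimmer probe set of Dll4 gave -0.02 (95% confidence interval -0.27 to 0.23). Jag2, a Jagged ligand of epithelia, was at 8.30, 8.37 and 8.27 in control and 8.27, 8.44 and 8.33 in deficient colon. This difference of 0.03 (95% confidence interval -0.10 to 0.16) turned to -0.02 without deficient replicate 2. In the other probe set of Jag2 the deficient arrays, at 7.21, 7.32 and 7.17, lay just above the control arrays, at 6.76, 7.0 and 7.14, and the log2 fold change of 0.27 did not pass (limma adjusted p = 0.0628).

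The sequence just before the start of transcription is shown for Dll1 and Jag1 because they are the ligand genes that moved apart. It was taken from RefSeq (GRCm38.p6), in which 8 of the 10 members had an entry, all but Hes1 and Hey1. Each line gives the 250 bases before the start, 5′ to 3′ on the strand of the gene. Capitals mark the letters CACGNG, the class C site that HES and HEY proteins can bind, on either strand. The Dll1 windows lie at chr17:15375824-15376073 and chr17:15376933-15377182 and the Jag1 window at chr2:137116521-137116770, all on the minus strand.
Dll1, start A: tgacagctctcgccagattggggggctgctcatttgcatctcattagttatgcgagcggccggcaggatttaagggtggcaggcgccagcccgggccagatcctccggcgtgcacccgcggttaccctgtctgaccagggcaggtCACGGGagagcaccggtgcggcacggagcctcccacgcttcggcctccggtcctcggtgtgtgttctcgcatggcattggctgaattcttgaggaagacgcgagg
Dll1, start B: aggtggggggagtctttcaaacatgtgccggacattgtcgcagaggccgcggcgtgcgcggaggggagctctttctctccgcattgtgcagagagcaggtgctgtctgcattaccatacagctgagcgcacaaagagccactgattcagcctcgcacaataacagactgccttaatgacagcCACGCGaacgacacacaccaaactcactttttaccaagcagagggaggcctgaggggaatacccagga
Jag1: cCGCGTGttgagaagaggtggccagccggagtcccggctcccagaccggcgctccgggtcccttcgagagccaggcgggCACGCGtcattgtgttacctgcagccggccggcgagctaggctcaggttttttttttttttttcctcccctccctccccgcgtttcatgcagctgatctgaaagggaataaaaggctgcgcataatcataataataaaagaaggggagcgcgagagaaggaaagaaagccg
The class C letters occurred once in each Dll1 window, ending 100 and 63 bases before the start, and in 2 places in the Jag1 window. They were found in 7 of the 9 windows of members and in 23.5% of all 32851 windows of this length. The windows of members held 56% to 87.2% G and C, and the letters CACGNG hold a CG. All windows were counted whatever their G and C content, so these shares cannot be compared as like with like. Neither ligand gene held TGGGAA, the core of the RBPJ site, which was found in 21.6% of all windows. These are letter matches and not measured binding.

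Of the receptor genes, Notch1, the main receptor of crypt progenitors together with Notch2, was at 9.65, 9.62 and 9.69 in control and 9.77, 9.78 and 9.64 in deficient colon. The groups overlapped, and the log2 fold change of 0.08 did not pass (SE 0.0523, 95% confidence interval -0.04 to 0.20, limma adjusted p = 0.295). The interval holds no change larger than 0.20 in either direction. Its other probe set had 8.19, 8.28 and 8.23 in control and 8.42, 8.33 and 8.30 in deficient colon, without overlap but with a log2 fold change of only 0.12 (limma adjusted p = 0.10). These are RNA levels, and cleavage of the Notch1 protein was not analysed here.

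Notch2 was at 8.49, 8.28 and 8.40 in control and 7.98, 7.89 and 7.88 in deficient colon. All deficient arrays were lower, and Notch2 fell 1.38-fold (log2 fold change -0.47, SE 0.0621, limma adjusted p = 6.2e-04). Falls as deep or deeper were seen in 7.14% of all probe sets. Its dimmer probe set, 1451889_at, had overlapping groups and a log2 fold change of -0.10 that did not pass (limma adjusted p = 0.171). Notch3, a receptor of vascular smooth muscle cells and pericytes, was at 7.55, 7.79 and 7.64 in control and 8.20, 8.23 and 8.19 in deficient colon. The deficient arrays were close together and all higher, a rise of 1.46-fold (log2 fold change 0.55, SE 0.0633, limma adjusted p = 3.1e-04). This value comes from 1421965_s_at, a probe set whose name marks sequence that other transcripts may share. The other Notch3 probe set, 1421964_at, was dim and uneven in deficient colon, at 6.03, 6.40 and 5.77 against 6.07, 6.03 and 6.07, and its log2 fold change was 0.01 (95% confidence interval -0.32 to 0.33, limma adjusted p = 0.978). Notch3 is therefore called only with the shared probe set.

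**Figure D2:**
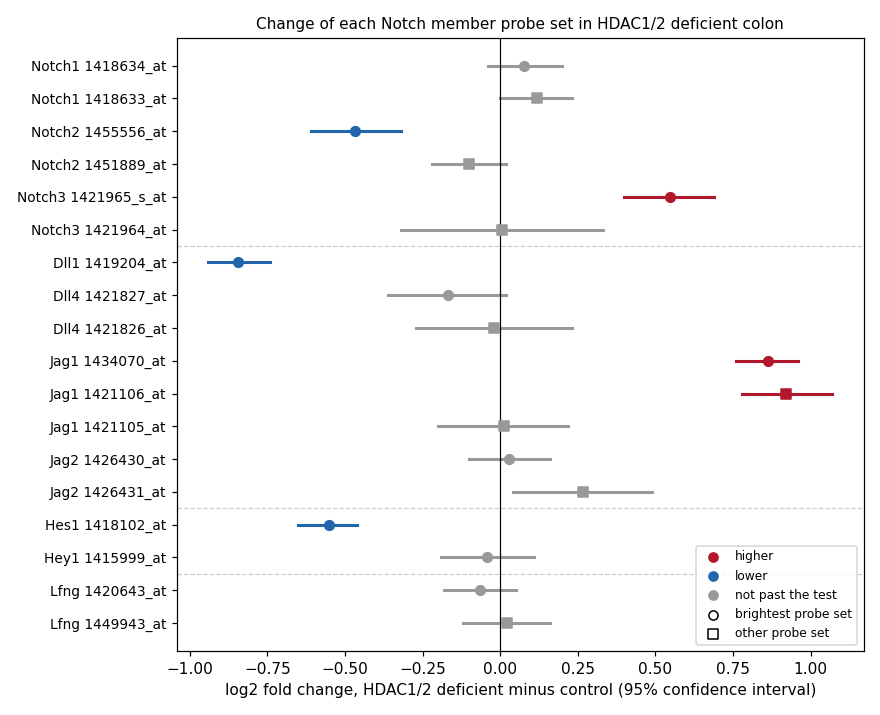
Log2 fold change (horizontal axis, HDAC1/2 deficient minus control, 3 arrays per group) of each member probe set, with its 95% confidence interval from limma. Red rose, blue fell and grey did not pass at an adjusted p under 0.05, circles are the brightest probe set of a gene and squares the others, and dashed lines part receptors, ligands, target repressors and Lfng. Dll1 at -0.84 and Jag1 at 0.86 lie at opposite ends, and 1 probe set each of Notch2, Notch3 and Jag1 stayed nearer 0 while another of the same gene changed.

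Of the target genes, Hes1, the best-known Notch target of the crypt, was at 10.66, 10.66 and 10.69 in control and 10.13, 10.15 and 10.08 in deficient colon. The arrays of each group were nearly identical and the groups lay apart. Hes1 fell 1.46-fold (log2 fold change -0.55, SE 0.0406, 95% confidence interval -0.65 to -0.46, limma adjusted p = 3.09e-05). A fall this deep or deeper was seen in 5.45% of all probe sets. Hey1, a related repressor best known from vessels, was at 7.13, 7.09 and 7.22 in control and 6.99, 7.21 and 7.12 in deficient colon. The groups overlapped, and the log2 fold change was -0.04 (95% confidence interval -0.19 to 0.11, limma adjusted p = 0.672), which turned to 0.02 without deficient replicate 1. The intervals of Hes1 and Hey1 do not touch.

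Lfng encodes Lunatic fringe, a glycosyltransferase of the Golgi that extends the O-fucose sugars of Notch and so favors Delta-like over Jagged ligands. It was at 7.09, 6.99 and 6.98 in control and 6.94, 6.93 and 6.99 in deficient colon. The log2 fold change of -0.06 did not pass (95% confidence interval -0.18 to 0.05, limma adjusted p = 0.339), and that of its dimmer probe set was 0.02 (95% confidence interval -0.12 to 0.16). Lfng was the only one of the 8 members with a RefSeq window whose 250 bases before the start held the RBPJ core TGGGAA, and its window is shown for that reason (chr5:140607091-140607340, plus strand). Capitals mark TGGGAA and the class C letters CACGNG on either strand.
Lfng: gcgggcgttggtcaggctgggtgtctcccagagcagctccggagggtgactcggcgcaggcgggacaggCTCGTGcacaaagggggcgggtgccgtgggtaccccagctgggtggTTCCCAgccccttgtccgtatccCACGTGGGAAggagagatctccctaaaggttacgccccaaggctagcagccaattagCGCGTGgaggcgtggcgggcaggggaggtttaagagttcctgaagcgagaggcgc
The RBPJ core occurred on the opposite strand 135 to 130 bases before the start. On the strand of the gene it lay at 108 to 103, overlapping a CACGNG match at 112 to 107. That match reads CACGTG on both strands.

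Beyond the 10 members, 47 other genes of the pathway were measured in 6 lists. Of these, 5 rose, 15 fell and 27 did not pass, or 42.6% past the test beside 50.4% of all genes, with a median log2 fold change of 0.01. The 5 rises became 9 with trend and robust settings in limma and 8 where the probe sets of a gene were averaged, and the 15 falls became 9 with the t-test of the methods after adjustment. Of 5 other receptor and ligand genes, Dlk1, which encodes an atypical ligand without the domain that binds Notch, rose by 3.13, from 7.12, 6.96 and 7.12 to 10.21, 10.25 and 10.12 (limma adjusted p = 5.94e-08). Its value comes from a probe set of shared sequence, and the other Dlk1 probe set rose by 0.27. Dner, a noncanonical ligand gene of neurons, fell by 0.42 in the brighter of 2 probe sets (limma adjusted p = 1.44e-04). Notch4 (0.01), Dll3 (-0.02) and Dlk2 (0.03) did not pass.

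Of the 5 genes beside Lfng that add sugars to Notch, 2 rose and 3 fell, and with Lfng, which did not pass, 5 of 6 passed, where 50.4% of all genes did. The fringe genes Rfng and Mfng rose by 0.42 and 0.18, and the other Rfng probe set was at 0.11 and did not pass. Poglut1 and Pofut1, which attach O-glucose and O-fucose, fell by 0.41 and 0.37, but the dimmer probe sets of Pofut1 (-0.15 and -0.10) did not pass. Eogt, which attaches O-linked N-acetylglucosamine, fell by 0.13 in its brightest probe set. A probe set of Eogt with shared sequence fell by 0.47 (limma adjusted p = 3.03e-04), and its dimmest, at -0.09, did not pass. Of 8 measured genes of the sheddases and gamma-secretase, 3 fell and 0 rose, or 37.5%, beside 50.4% of all genes. Those that fell encode gamma-secretase subunits, namely Psenen (-0.49, limma adjusted p = 9.36e-05), Ncstn (-0.39, with its dimmer probe set at 0.00) and Aph1b (-0.21). The gamma-secretase genes Psen2 (0.11) and Aph1a (-0.02) did not pass, although the other 2 probe sets of Aph1a fell by 0.20 and 0.26. The sheddase genes Adam10 (0.08) and Adam17 (0.09) and the protease gene Furin (-0.08) did not pass either. Of 8 measured genes of the nuclear complex and its corepressors, 4 fell and 0 rose, or 50.0%, beside 50.4% of all genes. Cir1, a corepressor that links RBPJ to histone deacetylases, fell by 0.50 (limma adjusted p = 3.22e-04), the coactivator gene Maml1 by 0.23, Rbpj itself by 0.22 (limma adjusted p = 0.00521) and the corepressor gene Ctbp1 by 0.17. Rbpj was at 10.32, 10.26 and 10.32 in control and 10.09, 10.03 and 10.12 in deficient colon. Of 12 ubiquitin ligase and adaptor genes, Itch, Mib1 and Neurl1b fell by 0.20, 0.18 and 0.16, or 25.0%, beside 50.4% of all genes. The other 9 did not pass, among them Numb, which encodes a Notch inhibitor, at 0.01. The other 3 probe sets of Itch did not pass, and with all probe sets averaged Itch was at -0.05 (limma adjusted p = 0.411) and Mib1 at 0.01.

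Of 9 other genes that Notch can switch on, 2 rose, 1 fell and 6 did not pass, or 33.3%, beside 50.4% of all genes. Olfm4, a Notch target and stem cell gene of the small intestinal crypt, was at 4.32, 4.08 and 4.37 in control and 8.09, 8.05 and 8.15 in deficient colon. Every deficient array was far above every control array, a rise of 3.84 (limma adjusted p = 8.18e-08). The control values lay near the low end of the scale, which began at 2.79, and Olfm4 was not kept by a filter at the 40th percentile of mean signal, so the size of the rise is uncertain. Ccnd1, which encodes cyclin D1, rose by 0.59 in its brightest probe set and in all 3 of its probe sets, by 0.53 to 0.59. Myc, which drives crypt growth, fell by 0.24. The 6 that did not pass were Nrarp, a feedback inhibitor, at 0.04, Dtx1 at 0.12, Hes5 at 0.11, Hes7 at 0.06, Hey2 at 0.05 and Heyl at -0.09, while the dimmer probe set of Nrarp rose by 0.25 (limma adjusted p = 0.0413). Olfm4, Ccnd1 and Myc also answer to other pathways. The calls of Eogt, Mfng, Aph1b, Mib1, Myc, Neurl1b and Ctbp1, all on changes of at most 0.24, were lost when 1 array was left out, with limma adjusted p up to 0.136, 0.124, 0.0821, 0.077, 0.0586, 0.0562 and 0.0509.

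**Figure D3:**
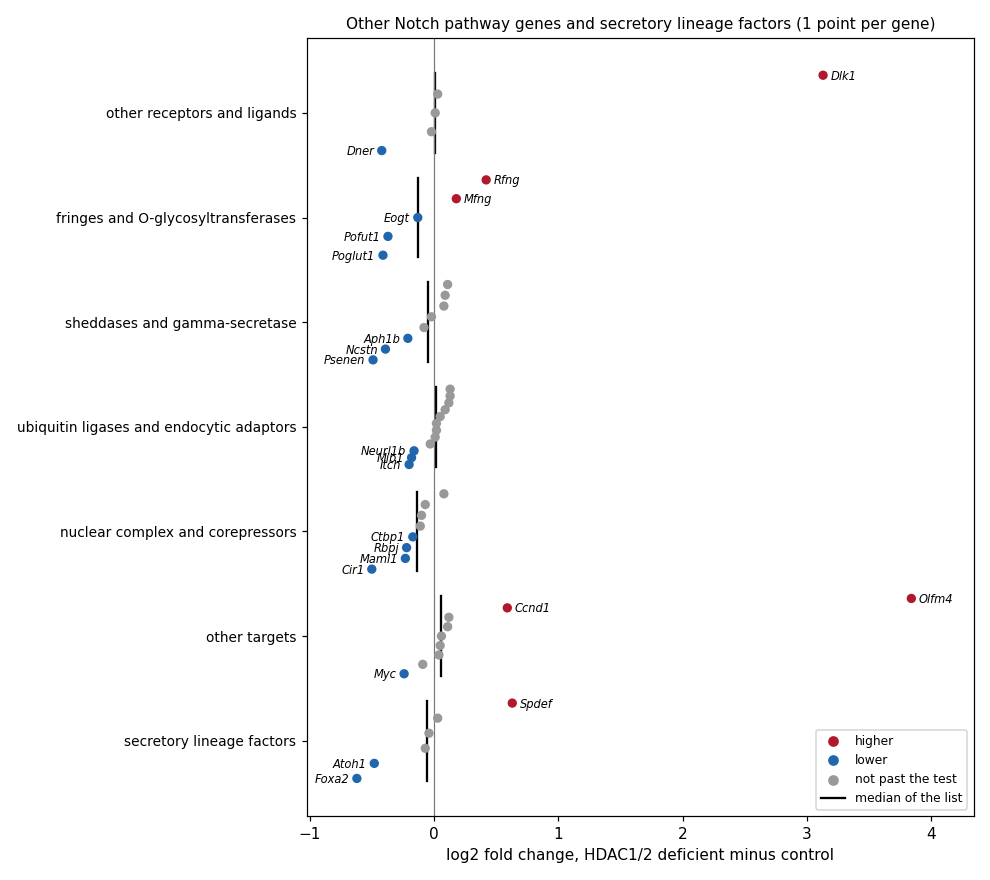
Log2 fold change (horizontal axis, HDAC1/2 deficient minus control, 3 arrays per group) of 47 other Notch pathway genes in 6 lists and of 6 secretory lineage factors, with each gene at its brightest probe set. Red rose, blue fell and grey did not pass limma at an adjusted p under 0.05, and the black bar is the median of the list. Olfm4 at 3.84 and Dlk1 at 3.13 stand apart, whereas the falls lie between -0.62 and -0.13.

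Atoh1, the secretory master gene that HES1 represses, fell along with Hes1. It was at 11.00, 10.95 and 11.01 in control and 10.51, 10.49 and 10.52 in deficient colon (log2 fold change -0.48, SE 0.0402, limma adjusted p = 5.62e-05). Of 6 secretory lineage factors, 2 fell and 1 rose, or 50.0%, beside 50.4% of all genes. Foxa2 also fell (-0.62), Spdef, a goblet cell factor, rose (0.63), and Gfi1 (-0.04), Neurog3 (0.03) and Foxa1 (-0.07) did not pass.

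Since whole colon RNA was measured, fewer cells of a type and less RNA per cell cannot be told apart. Markers of several cell types also changed. Of 7 goblet cell genes, 4 fell and 3 did not pass, or 57.1% past the test, beside 50.4% of all genes. The falls were led by Fcgbp (-0.96), Clca1 (-0.38) and Tff3 (-0.38), and the dimmer probe set of Clca1 fell by 1.68. The mucin gene Muc2 (0.08), Zg16 (-0.04) and Agr2 (-0.02) were those that did not pass. The median log2 signal of the list was 14.50 to 14.52 on control and 14.13 to 14.15 on deficient arrays, near the highest value of any probe set, 14.85. Of 10 general epithelial genes, 5 rose and 2 fell, or 70.0%, beside 50.4% of all genes. The largest rises were in Krt20 (0.67) and Cdx2 (0.56). The median of this list ran from 13.60 to 13.62 on control and from 13.68 to 13.77 on deficient arrays. These lists stand beside the falls of Dll1, Hes1 and Atoh1. Their part in those falls was not tested.

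Jag1 rose, and Notch3 rose only in its probe set of shared sequence, while most of the listed smooth muscle and pericyte genes fell. Of 10 smooth muscle and pericyte genes, 8 fell and 1 rose, or 90.0%, beside 50.4% of all genes. Des was at -0.69 and Pdgfrb, a gene of pericytes and fibroblasts, at 0.74. Rgs5 fell by 0.53, and Cspg4, at -0.05, did not pass, though its dimmer probe set fell by 0.41. The median signal of this list was 12.21 to 12.23 in control and 11.57 to 11.64 in deficient colon. Of 12 endothelial genes, 7 fell and 1 rose, or 66.7%, beside 50.4% of all genes. Emcn (-0.48) and Cldn5 (-0.37) fell most, and the list medians overlapped, at 7.83 to 7.90 and 7.79 to 7.90. Of 10 leukocyte genes, 9 rose and 0 fell, or 90.0%, beside 50.4% of all genes. Cd74 (1.83) and Cd79b (1.65) rose most, and the median signal was 8.33 to 8.40 against 9.91 to 9.97. Of 13 squamous epithelium genes, 8 fell and 2 rose, or 76.9%, beside 50.4% of all genes. Krt6b (-3.19) and Krt10 (-3.15) fell most, and the medians were 8.51 to 8.60 and 6.52 to 6.72. Of 7 pancreatic acinar genes, 6 rose and 1 fell, led by Cela2a (7.40) and Cpb1 (7.24), with medians of 6.41 to 6.56 and 12.18 to 12.22. The part of these cells in the values of Jag1, Notch2, Notch3 and Olfm4 was not tested.

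**Figure D4:**
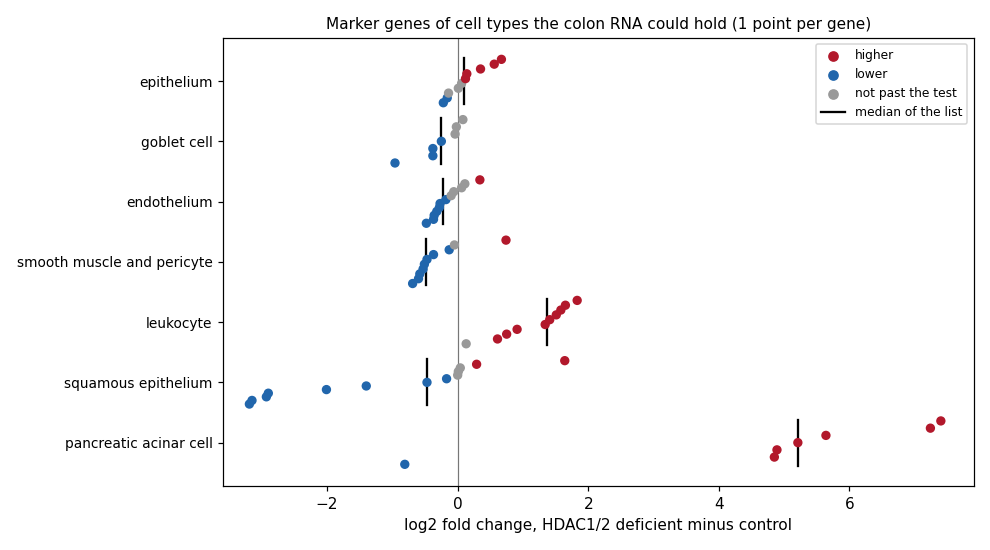
Log2 fold change (horizontal axis, HDAC1/2 deficient minus control, 3 arrays per group) of marker genes of 7 cell types, with each gene at its brightest probe set. Red rose, blue fell and grey did not pass limma at an adjusted p under 0.05, and the black bar is the median, which is 1.37 for leukocytes, -0.49 for smooth muscle and pericytes, -0.25 for goblet cells and 0.09 for epithelium.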

How the data were processed

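Total colon RNA of control and HDAC1/2 deficient mice was hybridized to 6 arrays, 3 per group. The authors deposited log2 values, 1 per probe set and array, background-corrected and normalized by RMA in Flexarray 1.6.1. They ran from 2.79 to 14.85, with array medians of 6.78 to 6.81. RMA compresses changes of dim probe sets, and the number of arrays limits the precision. The sample labels gave the groups and the mouse numbers. After 64 control probe sets were left out, 45037 were compared with limma 3.58.1 in R 4.3.3 (lmFit, eBayes, no covariate), with Benjamini-Hochberg adjustment over all of them, after the scripts had been tested on simulated data. Platform annotation gave 34945 probe sets 1 symbol, 932 several and 9160 none. Each gene is represented by its brightest probe set on average.

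The members and gene lists were chosen with earlier results of these data known. Named genes are all members, up to 5 called genes of each pathway list, the 2 largest changes of each marker list, and further genes needed to make a count plain, named after their values were seen. Listed pathway genes without a probe set of their own symbol, 4 of 51, were not analysed here. Promoter sequences are those of RefSeq (GRCm38.p6). Alternatives were the methods' t-test, further normalization, filters, variance settings, the mean of probe sets, a replicate block and leaving out each array. Figures were drawn with matplotlib 3.10.9. Scan dates were not given.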

Additional observations from a re-analysis of the deposited data

How the results depend on the processing

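Over 15 alternatives, the calls and directions of the 10 members held in 147 of 150 values. Without probe sets of shared sequence, Notch3 is read from its dim probe set, at a log2 fold change of 0.00647 (limma adjusted p = 0.978), and the number of member genes higher was 1 in place of 2. Hey1 turned to 0.0162 without HDAC1/2 deficient replicate 1, and Jag2 to -0.0167 without HDAC1/2 deficient replicate 2. Leaving out each array in turn, Dll1 lay between -0.87 and -0.82, Jag1 between 0.83 and 0.88, Hes1 between -0.56 and -0.53, Notch2 between -0.52 and -0.42, Notch3 between 0.49 and 0.61, Notch1 between 0.0507 and 0.12, Dll4 between -0.23 and -0.0961, Lfng between -0.0844 and -0.0288, Hey1 between -0.0917 and 0.0162 and Jag2 between -0.0167 and 0.0673. Over the same 6 runs, member probe sets higher numbered 3 or 4, and lower 3, and without probe sets of shared sequence 2 were higher.

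Other pathway genes higher numbered 9 with trend and robust settings and 8 with probe sets averaged per gene, against 5, and genes lower numbered 9 with the methods' t-test after Benjamini-Hochberg adjustment, against 15. The cause was not tested. With that mean, Mib1 turned from -0.18 to 0.0125 and Itch went from -0.20 to -0.0453 and no longer passed. Without 1 array, 4 to 5 were higher and 10 to 14 lower. The arrays that mattered were control replicates 1 and 3 with deficient replicates 1 and 2 for Mfng and Mib1, control replicates 1 and 3 with deficient replicates 1 and 3 for Aph1b and Myc, all but deficient replicate 2 for Eogt, deficient replicate 3 for Neurl1b and deficient replicate 1 for Ctbp1.

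Same-numbered arrays deviated from their group means with correlations of 0.0964, 0.0640 and -0.0258, and differently numbered arrays with -0.103 to 0.0304. With 3 arrays per group, these values cannot tell whether the numbers pair the arrays. With a replicate block, 3 member probe sets were higher and 3 lower as without it, and the other pathway genes lower numbered 14, Eogt being lost (limma adjusted p = 0.0727).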
